A study of Caenorhabditis elegans with 6 samples.

Results

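Transcript levels of the astacin metalloprotease family were compared between Caenorhabditis elegans treated with the acetylcholinesterase inhibitor diazinon (DZN), an organophosphorus insecticide, and control worms. The family was taken as all genes whose symbol is nas- followed by a number (nematode astacin), plus dpy-31, hch-1 and toh-1. A current gene table lists 40 such genes, of which 35 had a probe on the array, out of 17922 genes with a probe that could be named. The 35 genes were read by 37 probes, 2 each for nas-9 and nas-36 and 1 for every other gene. No probe matched nas-6, nas-12, nas-13, nas-23 or nas-40, and these 5 genes were not analysed here.

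Whole worms of the wild type strain N2 were grown from synchronised eggs on agar dishes with OP50 bacteria as food. The agar held either DZN dissolved in acetone or an equivalent amount of acetone alone, so both treatments carried the solvent. Worms were collected at 72 h and 16 °C, and each extract pooled the worms of several dishes. The dose was not settled here, because the sample titles give 1 mg/ml, the treatment text gives 0.5 mg/ml and the methods give 1 mg per litre. The stage was given as L3 in one place and as L3 to L4 in others. There were 6 two-colour arrays, described as separate biological replicates, and every array paired a DZN extract with a control extract. Cy5 marked the DZN extract on the arrays called DZN-Cy5 (3 replicates), and Cy3 marked it on those called DZN-Cy3 (3 replicates).

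Astacins are zinc-dependent proteases that are secreted as inactive proenzymes and cut proteins outside the cell. In nematodes they are known from hatching, from the processing of cuticle collagens and from the shedding of the old cuticle at each moult. The catalytic domain is shared, and what follows it divides the family into subgroups. Members of subgroup I consist of little beyond the protease, those of subgroup II carry toxin-like ShK repeats, and those of subgroup III carry EGF and CUB domains. Members of subgroup V add a thrombospondin repeat, and subgroup VI is nas-39, which resembles the tolloid and BMP-1 proteases of other animals.

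The DZN-Cy3 arrays were brighter in scan than the DZN-Cy5 arrays. Between 49.7% and 81.4% of worm probes per channel were above background, meaning more than 2 SD above the mean local background. DZN-Cy3 replicates 1 and 2 were scanned at a Cy3 detector (PMT) setting of 55, and the other arrays at 50. On these replicates the median Cy3 intensity was 934.5 and 1184, against 482 on DZN-Cy3 replicate 3 and 188 to 319 on the DZN-Cy5 arrays. Brightness thus also varied within an orientation. The effects of brightness, scan setting and dye orientation cannot be fully told apart. The labelled larval stage was checked against genes of adult hermaphrodites. The yolk protein genes vit-2, vit-5 and vit-6 and the adult cuticle collagen gene col-19 were above background in DZN worms on 4 to 6 of 6 arrays. Their log2 ratios varied widely between arrays, and the summed level of these 4 genes ranged from 11.98 to 15.12 in control worms and from 11.09 to 15.13 in DZN worms on the log2 scale. Markers of pharynx, hypodermis, intestine, body wall muscle and neurons were each above background on at least 1 array, and no summed level of these lists spanned more than 0.99 within a treatment.

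No astacin gene passed the limma test at an adjusted p of 0.05. All values below are log2 ratios of DZN over control, where 0 is no difference and -1 is a level halved. The largest estimates were -0.94 for nas-20 and 0.47 for toh-1. The smallest adjusted p was 0.357, for nas-4. Among all 17922 genes limma called 2 higher (0.0112%) and 1 lower (0.00558%). Without adjustment 2 of 35 astacin genes were higher (5.71%), where 3.3% of all genes were, and 5 were lower (14.3%), where 8.51% of all genes were. Rank products, the method named by the study, called nas-20 lower at a percentage of false positives (PFP) of 0.0456. That is 1 of 35 (2.86%) against 0.742% of all genes, and none of the 35 was called higher, against 0.636% of all genes. In whole worms, fewer cells of a type and less RNA per cell cannot be told apart.

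Estimates were below 0 for 22 of 35 astacin genes (62.9%), and for 51.6% of all genes. The median was -0.11, against -0.01 over all genes. Of the 28 astacin genes that were above background on at least 3 arrays in a treatment, 16 (57.1%) were below 0, against 54.1% of all genes that met the same filter, with medians of -0.06 and -0.02. Without DZN-Cy3 replicate 3, 19 of 35 were below 0 and the median was -0.03. In 12 genes every channel of every array was above background, and nas-16, nas-18 and nas-19 were never above it.

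Replicate arrays often disagreed, over all probes as well as on astacin genes. Between pairs of arrays the ratios of all worm probes correlated at -0.24 to 0.57, with a median of 0.13. The 6 ratios shared a sign in 0 of 35 astacin genes, where they did in 5.58% of all genes. Ratios lay below 0 on 5 of 6 arrays for 10 genes (28.6%, against 11.6% of all genes). Of these 10, 6 were among the 28 astacin genes above background on at least 3 arrays in a treatment. nas-2, nas-18, nas-19 and nas-24 were not. The share of all genes with that filter was not computed for this pattern. Ratios lay above 0 on 5 of 6 arrays for nas-9, nas-25 and nas-31 (8.57%, against 10.4% of all genes). The levels of control and DZN worms overlapped for each of the 35 genes, and failed to overlap for 0.112% of all genes. The SD of the 6 ratios of a gene had a median of 0.46 over the family and 0.36 over all genes. Among genes above background on at least 3 arrays in a treatment these medians were 0.47 and 0.40.

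**Figure D1:**
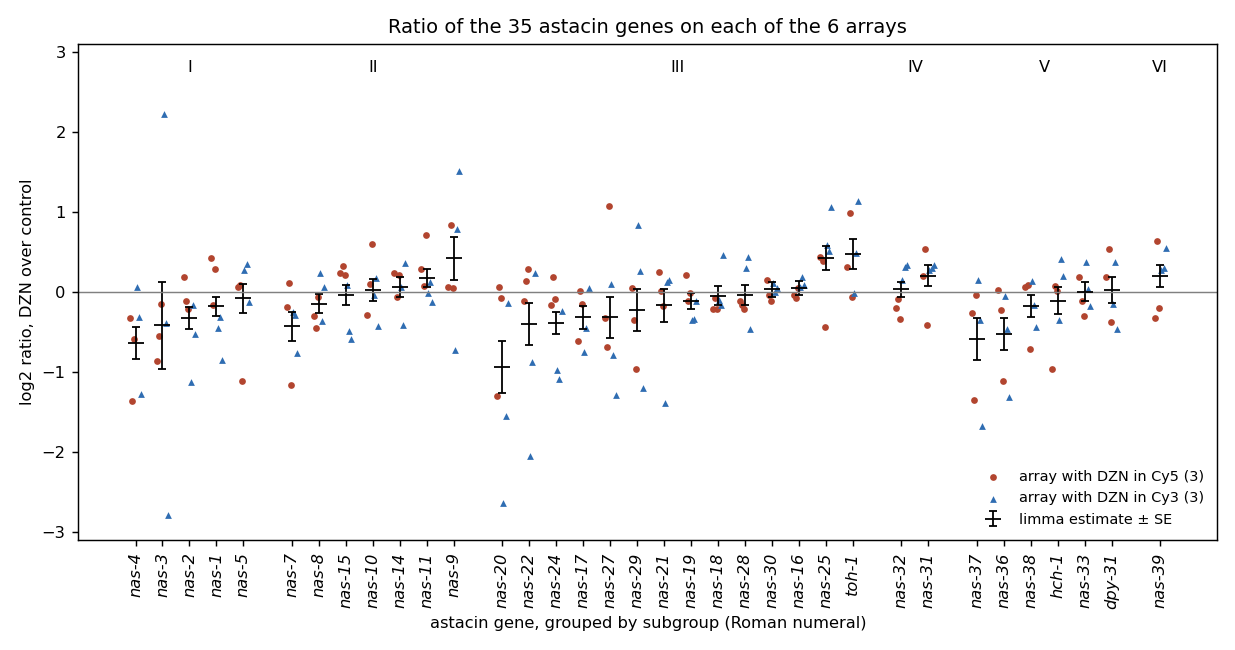
Log2 ratio of DZN over control (vertical axis) for the 35 astacin genes (horizontal axis), grouped by subgroup and ordered by estimate within it. Each gene has 6 points, 1 per array, with circles for arrays with DZN in Cy5 and triangles for arrays with DZN in Cy3, and a bar for the limma estimate with its SE. In every gene the points lie on both sides of 0, and nas-3 has the widest spread, from -2.79 to 2.23.

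nas-36 and nas-37 encode the subgroup V proteases needed to shed the old cuticle at the moult. Levels here are normalised log2 intensities of a probe, over the 6 arrays as lowest, median and highest. nas-37 had 12.45, 12.70 and 13.28 in control worms and 11.61, 12.25 and 12.78 in DZN worms. Its ratios were -0.26, -1.35 and -0.04 with DZN in Cy5 and 0.15, -0.35 and -1.68 with DZN in Cy3. DZN-Cy5 replicate 2 and DZN-Cy3 replicate 3 were low, while the other 4 arrays lay near 0. The estimate was -0.59 ± 0.26 (SE, n = 6 arrays, limma adjusted p = 0.479), with a 95% interval of -1.20 to 0.02.

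For nas-36 the brighter probe had levels of 10.79, 11.37 and 12.29 in control worms and 9.87, 10.73 and 12.06 in DZN worms. Its ratios were 0.02, -0.23 and -1.11 with DZN in Cy5 and -0.05, -0.47 and -1.31 with DZN in Cy3. Again 2 arrays carried most of the difference, here DZN-Cy5 replicate 3 and DZN-Cy3 replicate 3. The estimate was -0.53 ± 0.20 (SE, n = 6, limma adjusted p = 0.425). The dimmer probe of nas-36 gave -0.29 ± 0.10 (adjusted p = 0.395), of the same sign, although on DZN-Cy5 replicate 3 it read 0.13 where the brighter probe read -1.11.

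The other genes of subgroup V were nearer 0. nas-38, which acts in the sleep-like state that accompanies each moult, had an estimate of -0.18 ± 0.14, with ratios from -0.71 to 0.13. dpy-31 encodes the procollagen C-proteinase that processes the cuticle collagen SQT-3. Its estimate was 0.02 ± 0.16 with a 95% interval of -0.35 to 0.39, and its ratios split 3 against 3 in sign. hch-1, the hatching enzyme of the embryo, was above background on 1 array in each treatment, so its -0.11 ± 0.17 rests mostly on dim spots. nas-33 had 0.00 ± 0.12.

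nas-7 belongs to subgroup II and is known from the formation of the pharyngeal grinder, the cuticle plates that crush food. Its levels were 10.37, 10.87 and 11.87 in control worms and 9.62, 10.32 and 11.69 in DZN worms. The ratios were -0.19, 0.11 and -1.17 with DZN in Cy5 and -0.25, -0.29 and -0.77 with DZN in Cy3. The ratio was slightly low on 3 arrays, clearly low on 2 and above 0 on 1. The estimate was -0.43 ± 0.18 (limma adjusted p = 0.448). The 4 pharynx markers had a median estimate of -0.05, and on DZN-Cy5 replicate 3, where nas-7 was lowest, their median ratio was -0.66. On DZN-Cy3 replicate 3, where nas-7 was at -0.77, it was 0.25. The summed level of these markers ranged from 14.59 to 15.21 in control worms and from 14.21 to 15.16 in DZN worms. Their part in the result was not tested. The other 6 genes of subgroup II lay between -0.15 and 0.42, and the highest of them was nas-9. Its brighter probe gave 0.42 ± 0.27 with ratios from -0.73 to 1.51, while its second probe was never above background and gave -0.02 ± 0.10. Over the 7 genes the median was 0.02.

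All 5 genes of subgroup I had estimates below 0, as 51.6% of all genes did, with a median of -0.33. The estimates of nas-1 and nas-5 were -0.18 ± 0.12 and -0.08 ± 0.18, and nas-5 was above 0 on 4 of 6 arrays. nas-4 had the smallest p of the family. Its levels were 10.46, 11.74 and 12.59 in control worms and 10.14, 11.18 and 11.76 in DZN worms. Its ratios were -0.33, -1.37 and -0.59 with DZN in Cy5 and 0.06, -0.32 and -1.28 with DZN in Cy3. The gene was thus low on 5 of 6 arrays, and as in nas-37 most on DZN-Cy5 replicate 2 and DZN-Cy3 replicate 3. The estimate was -0.64 ± 0.20 (limma unadjusted p = 0.0152, adjusted p = 0.357), a level 1.56-fold lower. nas-2 had -0.33 ± 0.14 but was above background on 1 array only in each treatment. nas-3 was above background on 6 control and 4 DZN channels, and its ratios ran from -2.79 on DZN-Cy3 replicate 3 to 2.23 on DZN-Cy3 replicate 1, which leaves an estimate of -0.42 ± 0.54. This gene is named because of that spread, after its values were seen.

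**Figure D2:**
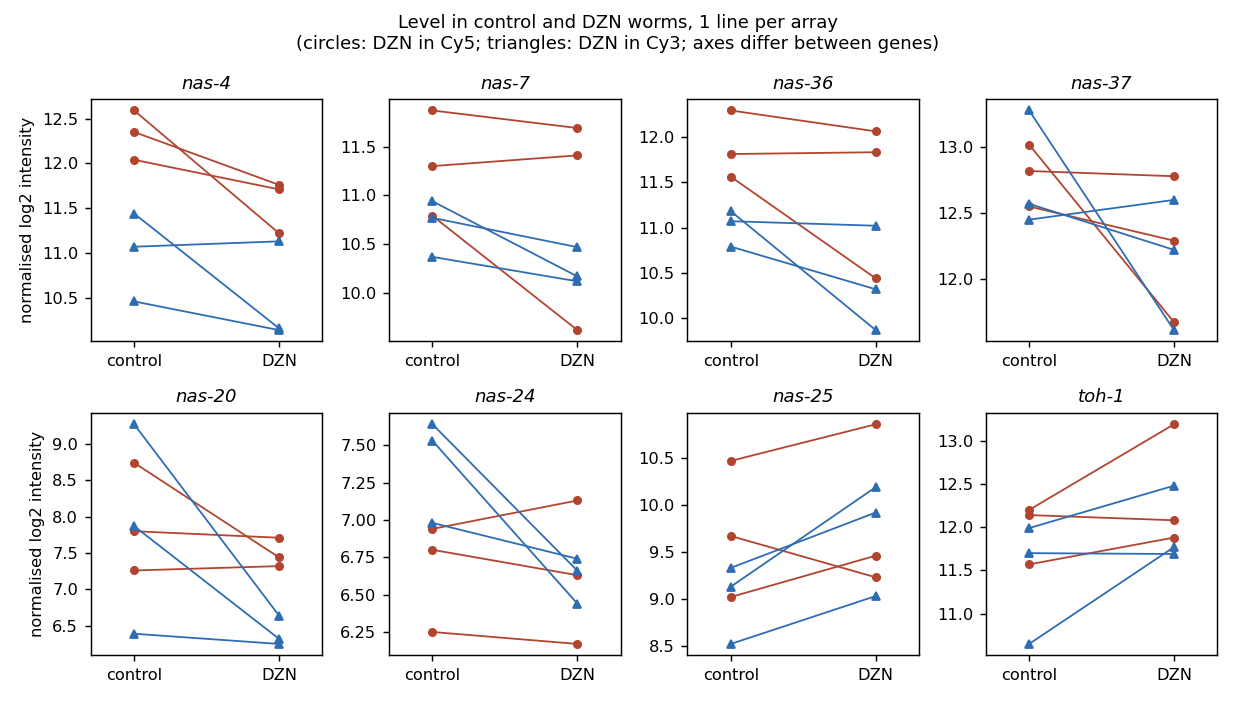
Normalised log2 intensity (vertical axis, a separate scale for each gene) in control and DZN worms for 8 astacin genes, with 1 line per array joining its 2 extracts, circles for DZN in Cy5 and triangles for DZN in Cy3. The levels of the treatments overlap in each panel, and the steep lines of nas-37 belong to DZN-Cy5 replicate 2 (-1.35) and DZN-Cy3 replicate 3 (-1.68).

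Subgroup III was the largest, with 14 genes measured, and held both ends of the family. nas-20 had levels of 6.39, 7.83 and 9.27 in control worms and 6.25, 6.98 and 7.71 in DZN worms. Its ratios were -1.30, 0.06 and -0.08 with DZN in Cy5 and -2.64, -1.55 and -0.14 with DZN in Cy3. The gene was low on 3 arrays and near 0 on the other 3. The estimate was -0.94 ± 0.32 (limma adjusted p = 0.375), a level 1.92-fold lower, and the spots were above background on 4 control and 3 DZN channels. The rank product call of nas-20 at a PFP of 0.0456 was lost when any of the 3 low arrays was left out, with a PFP of 0.359 without DZN-Cy3 replicate 1, 0.248 without DZN-Cy3 replicate 2 and 0.235 without DZN-Cy5 replicate 1. It was also lost without background correction (PFP 0.059).

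On chromosome V nas-20, nas-21 and nas-22 are neighbours, with no other protein-coding gene between them. On DZN-Cy3 replicate 1 all of them were low, at -2.64, -1.39 and -2.05. On DZN-Cy3 replicate 2 nas-20 and nas-22 were low, at -1.55 and -0.88, and nas-21 was at 0.12. On DZN-Cy5 replicate 1 only nas-20 was low, with -0.11 for nas-22 and 0.25 for nas-21. The estimates of nas-22 and nas-21 were -0.40 ± 0.26 and -0.17 ± 0.21. Whether the probes of these neighbouring genes share sequence was not tested. A second run of neighbours on this chromosome holds nas-16, nas-17, nas-18 and nas-19. Of these nas-17 was above background on 1 control channel and no DZN channel, and the other 3 on none, so their levels could not be compared at this signal.

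nas-24 was low on the same DZN-Cy3 arrays as nas-20, with -0.17, 0.19 and -0.09 with DZN in Cy5 and -0.98, -1.09 and -0.24 with DZN in Cy3. The estimate was -0.39 ± 0.14 (limma adjusted p = 0.383), and the spots were above background on 2 control channels and 1 DZN channel.

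The highest estimates of the family were also in subgroup III. toh-1, named as a tolloid homologue, had levels of 10.65, 11.85 and 12.20 in control worms and 11.69, 11.98 and 13.19 in DZN worms. Its ratios were 0.31, 0.99 and -0.06 with DZN in Cy5 and -0.01, 0.49 and 1.13 with DZN in Cy3. DZN-Cy5 replicate 2 and DZN-Cy3 replicate 3, the arrays on which nas-37 was lowest, were the arrays on which toh-1 was highest. The estimate was 0.47 ± 0.19 (limma adjusted p = 0.431), a level 1.39-fold higher. nas-25 had ratios of 0.44, 0.39 and -0.44 with DZN in Cy5 and 0.58, 0.51 and 1.06 with DZN in Cy3. It was high on 5 of 6 arrays, with an estimate of 0.42 ± 0.15 (adjusted p = 0.392). nas-27 and nas-29 moved by more than 1 in at least 1 array but had estimates of -0.32 ± 0.26 and -0.23 ± 0.26, and nas-30 stayed between -0.12 and 0.15 on all 6 arrays.

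The 2 genes of subgroup IV, nas-31 and nas-32, had estimates of 0.20 ± 0.13 and 0.03 ± 0.09. nas-39, the single gene of subgroup VI, had 0.20 ± 0.14 with ratios from -0.33 to 0.63.

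The dye swap allowed the ratio to be read in each orientation. No astacin gene passed the orientation term after adjustment, as no gene of the array did (0.0%). Without adjustment 4 of 35 passed (11.4%), where 12.1% of all genes did. nas-1 had a mean ratio of 0.18 with DZN in Cy5 and -0.54 with DZN in Cy3, a difference of 0.72 ± 0.25 (limma unadjusted p = 0.0218, adjusted p = 0.365). nas-24 had means of -0.02 and -0.77, a difference of 0.74 ± 0.27 (adjusted p = 0.38).

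**Figure D3:**
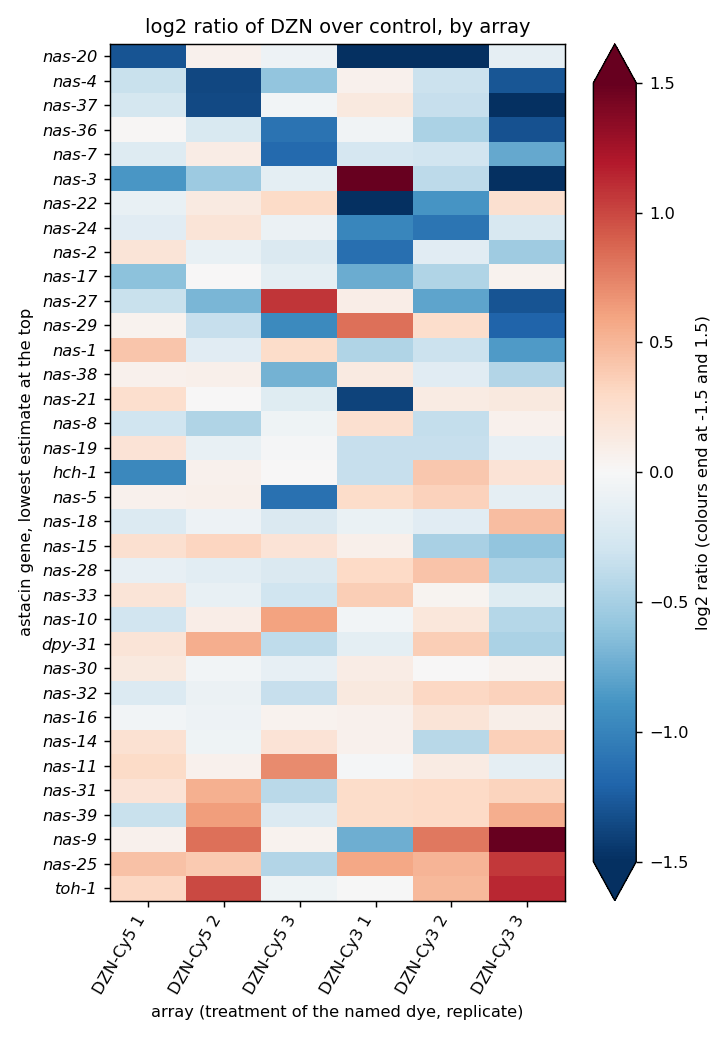
Log2 ratio of DZN over control for the 35 astacin genes (rows, lowest estimate at the top) on the 6 arrays (columns), with blue for lower and red for higher in DZN worms. Colours end at -1.5 and 1.5. The same gene can differ widely between columns, as nas-20 does, at -2.64 on DZN-Cy3 replicate 1 and -0.14 on DZN-Cy3 replicate 3.

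The arrays differed in how far the family moved. More than 0.5 below 0 lay 10 of 35 genes on DZN-Cy3 replicate 3 (28.6%, against 15.7% of all genes) and 7 on DZN-Cy3 replicate 1, where 12.5% of all genes did. On DZN-Cy5 replicate 3 they were 6 (17.1%, against 18.9%). On the other 3 arrays they were 4 (11.4%), against 7.25%, 10.3% and 11.3% of all genes on DZN-Cy5 replicates 1 and 2 and DZN-Cy3 replicate 2. More than 0.5 above 0 lay 5 genes on DZN-Cy5 replicate 2 (14.3%, against 8.68% of all genes) and 3 on DZN-Cy3 replicate 1 (8.57%, against 7.39%). On the other 4 arrays the share of the family above 0.5 was lower than that of all genes, with 8.57% against 12.4% on DZN-Cy5 replicate 3 and 11.4% against 15.2% on DZN-Cy3 replicate 3. The median of the family ranged from -0.17 on DZN-Cy3 replicate 2 to 0.06 on DZN-Cy3 replicate 1.

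Genes that act beside the astacins in cuticle and moult were read in the same fit. This list of 41 genes covers cuticle collagens, collagen-modifying enzymes, matrix proteins and moult regulators, and all 41 had a probe. The median estimate was -0.15, and 32 of 41 (78.0%) were below 0, against 51.6% of all genes. Of all genes above background on at least 3 arrays in a treatment, as 40 of the 41 were, 54.1% were below 0. The median of the list was -0.03 without DZN-Cy3 replicate 3, -0.09 without DZN-Cy5 replicate 2, -0.24 without DZN-Cy3 replicate 1 and -0.02 with median centring. None of the 41 was called by limma or rank products. Without adjustment 5 were lower and 0 higher, where 8.51% and 3.3% of all genes were. Among all genes that met the same background filter, 1470 of 13497 were lower. The smallest p belonged to nekl-2, a NIMA-related kinase needed for moulting, with -0.46 ± 0.12 (limma adjusted p = 0.282) and ratios between -0.98 and -0.19. bli-5, a Kunitz-type protease inhibitor gene, had -0.59 ± 0.16 (adjusted p = 0.305) and ratios between -1.39 and -0.03. dpy-17, a cuticle collagen gene whose product acts with SQT-3, the substrate of DPY-31, had -0.62 ± 0.21 (adjusted p = 0.375). Its mean ratio was -1.41 with DZN in Cy5 and 0.18 with DZN in Cy3, so its estimate came from one orientation. On DZN-Cy3 replicate 3, where nas-37 and nas-36 were lowest, the median of the list was -0.77. It was -0.23 on DZN-Cy5 replicate 2, the other low array of nas-37, and -0.04 on DZN-Cy5 replicate 3, the other low array of nas-36.

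In 3 cuticle genes, picked after their values were seen, the 2 lowest arrays were those of nas-4 and nas-37. Other genes of the list went the other way there, such as lrp-1, with 0.61 on DZN-Cy5 replicate 2 and 0.29 on DZN-Cy3 replicate 3. noah-1, a gene of the apical extracellular matrix, had -1.02 on DZN-Cy5 replicate 2 and -1.27 on DZN-Cy3 replicate 3, and lay between -0.19 and 0.16 on the other arrays. phy-2, a prolyl 4-hydroxylase gene of collagen synthesis, had -0.92 and -1.15 on the same arrays, and the collagen gene dpy-9 had -1.05 and -1.06. The 4 hypodermis markers, dpy-7, dpy-13, rol-6 and col-12, are also genes of that list, so they are not a separate reading. They had medians of -0.25 and -0.32 there. They ranged from -1.27 for col-12 to 0.40 for rol-6 on the first array and from -0.79 for dpy-7 to -0.06 for col-12 on the second. dpy-13 was above background on 1 control channel and no DZN channel. The 4 intestine markers, read because toh-1 was high on these arrays, had medians of 0.65 and 0.43, and ranged from -0.70 for elt-2 to 1.19 for ges-1 on the first and from -0.19 to 1.98 for the same genes on the second. The part of stage or tissue make-up in these ratios was not tested.

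DZN-Cy3 replicates 1 and 2, on which nas-20, nas-22 and nas-24 were low, were also low arrays of the adult genes, as was DZN-Cy5 replicate 1. vit-5 had -4.22, -1.18 and -0.20 with DZN in Cy5 and -5.20, -3.31 and 1.17 with DZN in Cy3, and was called lower by rank products with an estimate of -2.16 ± 0.82. Rank products called each of the 4 adult genes lower, and limma none. col-19 had -1.53 on DZN-Cy5 replicate 1, -3.03 on DZN-Cy3 replicate 1 and -2.81 on DZN-Cy3 replicate 2, and lay between 0.47 and 1.67 elsewhere. Of the 4 sperm genes spe-11, a paternal gene of the early embryo, was at -1.97 and -1.74 on DZN-Cy3 replicates 1 and 2, with a rank product PFP of 0.0135, and spe-38 was never above background. The summed level of the 4 sperm genes ranged from 9.99 to 11.19 in control worms and spanned 1.47 upwards from 9.53 in DZN worms. The 4 oocyte markers had medians of -0.71 and -0.65 on DZN-Cy3 replicates 1 and 2, -0.16 on DZN-Cy5 replicate 1 and 1.00 on DZN-Cy5 replicate 3, with a median estimate of 0.02. DZN-Cy3 replicates 1 and 2 also shared the Cy3 scan setting of 55. The part of adult or germline RNA, or of scan setting, in the nas-20 ratios was not tested.

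**Figure D4:**
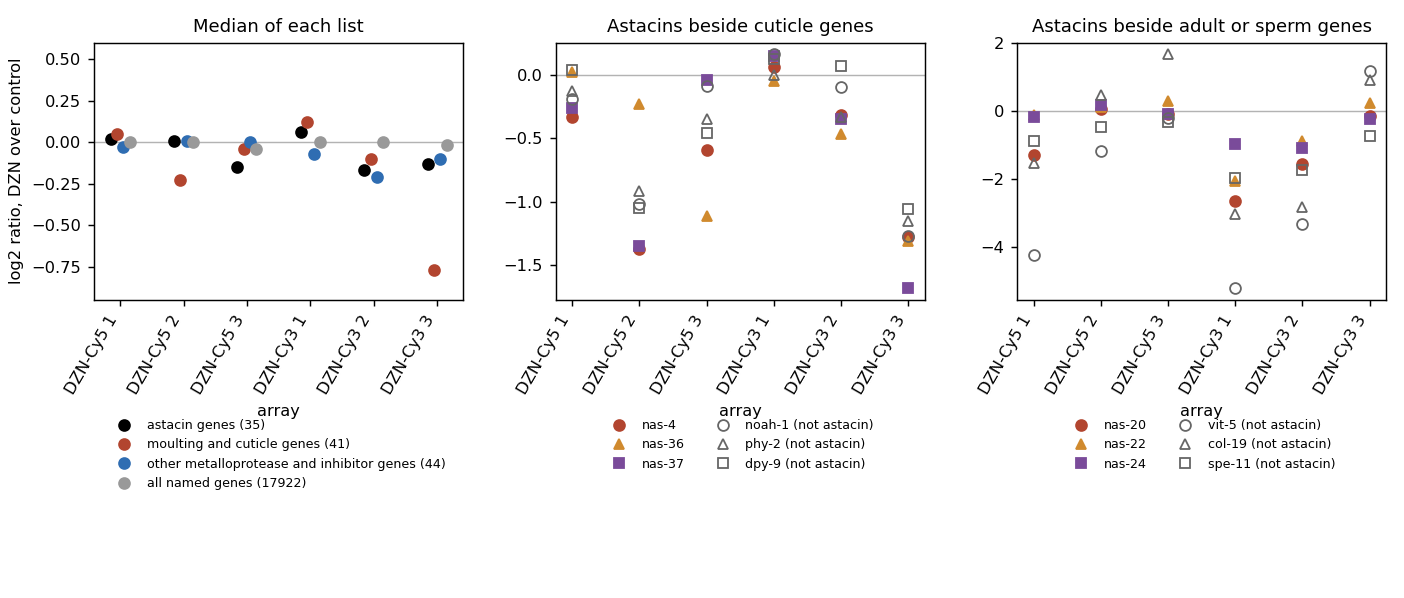
Log2 ratio of DZN over control (vertical axes, scales differ) on each of the 6 arrays (horizontal axes): medians of the astacin genes, of 2 other lists and of all genes (left), 3 astacin genes beside 3 cuticle genes (middle), and 3 astacin genes beside 2 adult genes and 1 sperm gene (right). nas-37 is lowest where noah-1 is lowest, on DZN-Cy3 replicate 3, and nas-20 is lowest where vit-5 is lowest, on DZN-Cy3 replicate 1, genes having been picked for this after their values were seen.

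A list of 44 other extracellular metalloprotease and inhibitor genes, among them neprilysins, ADAM and matrix metalloproteases and tissue inhibitors, had a median of -0.05. Of these 44, 25 (56.8%) were below 0, against 51.6% of all genes. None of the 44 was called by limma or rank products. Without adjustment 1 was higher and 4 were lower, where 3.3% and 8.51% of all genes were. The 3 with the smallest p were all neprilysin genes, which make up much of this list and whose family cuts small peptides at the cell surface. They were nep-19 with -0.34 ± 0.12 (limma adjusted p = 0.382), nep-15 with -0.58 ± 0.20 (adjusted p = 0.392) and nep-10 with -0.29 ± 0.11 (adjusted p = 0.403). Each was lowest on DZN-Cy3 replicates 1 and 2, the arrays on which nas-20 was lowest. nep-15 had -1.73 and -1.02 there, and was between -0.54 and 0.05 on the other 4 arrays. nep-10 had a mean ratio of 0.13 with DZN in Cy5 and -0.71 with DZN in Cy3, so its estimate came from 1 orientation. It was above background on 2 channels in each treatment, and nep-19 on 4 control channels and 1 DZN channel.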

How the data were processed

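RNA of control and DZN worms was hybridised on 6 two-colour oligonucleotide arrays. The scanner output that the authors deposited gives each spot's linear intensity and local background before any normalization, and the percent of its pixels that were saturated. No astacin probe was saturated. A second deposited file holds log2 ratios. These matched loess on uncorrected foreground values, with DZN in the numerator, at a correlation of 1 and a slope of 1, and column medians were -0.0146 to 0.0113. The authors name limma with loess and Aquantile and rank products, and no background step. A genome build for probe design was not given in the sources used here.

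Of 23232 spots per array, 22490 were worm probes. Sequence names were matched to the RefSeq gene table of assembly WBcel235, used for names and neighbours only. In total 21413 probes matched a gene and 1077 none. A gene is represented by its probe of highest mean intensity.

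Spot means less median local background were corrected with normexp (offset 50), normalized by loess within arrays (control spots at weight 0) and Aquantile between arrays, and tested with lmFit and eBayes in limma 3.58.1 (R 4.3.3), with a dye orientation term and Benjamini-Hochberg adjustment over all worm probes at 0.05, two-sided. Intervals are 95% and SEs are limma's. One-class rank products were written from their definition, with 100 permutations and a PFP under 0.05. Both were also run on simulated ratios with independent noise and the same shift on all arrays. This setting is simpler than the real arrays, so the run checked the code and not the error rates here. Array data carry no counts, so the number of arrays limits the precision. All 6 arrays shared 1 scan day, and header dyes were as labelled.

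Genes named with values were those called, the 12 members of smallest limma p, members with a known role, the 2 of smallest orientation p, and 3 per other list. The members, lists and rules were chosen with earlier results of these data known. Alternatives changed the background step, normalization, dim filter, probe rule, dye term, replicate block and arrays.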

Additional observations from a re-analysis of the deposited data

Results flagged for a closer look

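In 4 of the 35 astacin genes 1 array stood far from the other 5, by a test of the gap to the nearest ratio against the whole range. The nominal rate of this test is about 1 gene in 20. The SD of the ratios of all genes ranged from 0.40 to 0.64 between arrays. The share of all genes flagged was not computed, so whether the family differs from it is not known. nas-5, of subgroup I, was at -1.12 on DZN-Cy5 replicate 3 and between -0.13 and 0.35 elsewhere. nas-31, of subgroup IV, was at -0.41 on the same array and between 0.20 and 0.53 on the others. nas-21, the middle gene of the nas-20 neighbours, was at -1.39 on DZN-Cy3 replicate 1 and between -0.18 and 0.25 elsewhere. nas-18 was at 0.46 on DZN-Cy3 replicate 3 and between -0.22 and -0.08 elsewhere, with no channel above background.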

How the results depend on the processing

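The number of astacin genes called by limma was 0 under all 17 alternatives, and so were those of the moulting and cuticle genes and of the other metalloprotease and inhibitor genes. These alternatives were not all separate checks. Leaving out Aquantile changed no ratio, and the authors' table nearly repeats the setting without background correction. Counts at an unadjusted p under 0.05 ranged from 1 to 8 of the astacin genes. The family median ranged from -0.14 to -0.03 with an array left out and from -0.19 to -0.04 otherwise, and that of the moulting and cuticle genes from -0.24 to -0.03 and from -0.16 to -0.02. The rank product count fell from 1 to 0 with the authors' table (PFP of nas-20 0.0583), median centring in place of loess (0.16) and no background correction (0.059), and ranged from 0 to 1 with an array left out. A second random seed, chosen after seeing the data like the use of mean local background, kept the call (0.0455). With an array left out dpy-31 ranged from -0.10 to 0.14 and hch-1 from -0.20 to 0.06, changing sign. The other members in the set of named genes defined above kept their sign. Members given an estimate outside that set, such as nas-3, nas-5, nas-21 and nas-29, were not followed across settings. With an array left out nas-4 stayed between -0.78 and -0.45 and toh-1 between 0.33 and 0.61. With other settings nas-2 ranged from -0.67 to -0.18, nas-20 from -1.27 to -0.58 and nas-24 from -0.61 to -0.18. nas-17 ranged from -1.16 to -0.12, but it was above background on 1 control channel and no DZN channel. Its range and sign are therefore not read as a direction. Some named genes moved by over 1.5 times with an array left out. nas-2 was at -0.20 and nas-22 at -0.11 without DZN-Cy3 replicate 1, and nas-22 at -0.68 without DZN-Cy3 replicate 3. nas-9 was at 0.73 and 0.17 without the same arrays. Without DZN-Cy3 replicate 3 nas-37 was at -0.33, nas-36 at -0.35, nas-38 at -0.11 and nas-1 at -0.10. Without DZN-Cy5 replicate 2 nas-37 was at -0.39, nas-39 at 0.05 and nas-1 at -0.09. Without DZN-Cy5 replicate 3 nas-7 was at -0.24 and nas-38 at -0.04. With median centring the median of all genes was 0.04. The replicate block left 0 astacin genes called and the median at -0.11, with 6 genes of the array called in place of 3. Deviations of same-numbered arrays correlated at 0.15, -0.01 and -0.08, so the numbers were not read as pairs. Calls over all genes ranged from 0 to 124, the latter without DZN-Cy3 replicate 3, none of them an astacin. A slide or scan date block could not be run, since each slide held 1 array and all were scanned on 1 day. In DZN worms nas-17 had only a bound, with no fold.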
